A study of Mus musculus with 12 samples.

Results

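The genes described are 10 molecular chaperones of the mouse: 7 of the cytosolic heat shock response (Hspa1a, Hspa1b, Hspa8, Hsph1, Hspb1, Dnajb1 and Hsp90aa1) and 3 of the endoplasmic reticulum, or ER (Hspa5, Hsp90b1 and Dnajb9). They are 10 of the 18193 genes with a probe set of a single gene symbol on the array. All 10 lay above the intensity filter and so were among the 12735 genes tested. The genes were chosen by earlier results of these same tumors: Hspa1b was selected on its fall with the antibody 1D11, and the others were set around it as its chaperone relatives and as an ER counterpart. Each gene is represented by its probe set with the highest mean log2 intensity of the 12 arrays. The 10 genes have 25 probe sets in all.

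The tumors were grown from LLC cells (Lewis lung carcinoma, an established mouse line derived from C57BL/6) under the skin of the flank of female C57BL/6 mice that were 6 to 8 weeks old. Treatment groups were formed at a tumor size of 60 to 80 mm3, and tumors were taken on day 19 after injection. There were 4 groups of 3 tumors: 13C4 alone (control), 1D11 alone (1D11), 13C4 with radiation (radiation) and 1D11 with radiation (1D11_radiation). The antibody 1D11 blocks TGF-beta, and 13C4 serves as its non-binding isotype control, so every tumor received an antibody. The characteristics give the radiation as 5 fractions of 6 Gy and the descriptions as 2 Gy, and the labels speak in places of cells and elsewhere of tumors. The host mice had their own immune system and stroma, and one tumor line was used. The labels number the samples within a group but do not say that each came from its own mouse, so a p-value measures only the spread between these samples.

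A chaperone binds proteins that are unfolded or newly made and helps them fold. In the cytosol, Hspa8 is the constitutive member of the Hsp70 family, and Hspa1a and Hspa1b are its stress-inducible members, encoded by neighbouring near-identical genes. Dnajb1 is an Hsp40 co-chaperone that delivers clients to Hsp70, Hsph1 (Hsp110) is a nucleotide exchange factor that resets it, Hspb1 (Hsp25 in the mouse) is a small heat shock protein that holds unfolded clients, and Hsp90aa1 is the inducible cytosolic Hsp90. Heat shock factor Hsf1 switches on the inducible genes through heat shock elements. In the ER, Hspa5 (BiP) is the Hsp70 of that compartment, Hsp90b1 (Grp94) its Hsp90, and Dnajb9 (ERdj4) a co-chaperone of BiP. These genes belong to the unfolded protein response, which acts in part through ER stress elements in their promoters.

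Promoter sequences are shown for the 6 genes that hold a heat shock core or an ER stress element, the motifs tied to the responses of the cytosol and the ER. The RefSeq promoter table (GRCm38.p6, 250 bases before and 50 after each annotated start) held 10 promoters of 8 of the genes. Hspa8 and Hsp90aa1 had no entry in it. The motifs searched were the heat shock core (GAANNTTC or TTCNNGAA, each its own reverse complement) and the ER stress element (CCAAT, then 9 bases, then CCACG, on either strand). Of 32851 promoters in the table, 15.1% held a heat shock core and 0.119% an ER stress element. The stretches below run 5′ to 3′ on the strand of the gene, with the matches in capitals.
Hspa1a: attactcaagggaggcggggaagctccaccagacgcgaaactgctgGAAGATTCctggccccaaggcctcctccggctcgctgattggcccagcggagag
Hspa1b: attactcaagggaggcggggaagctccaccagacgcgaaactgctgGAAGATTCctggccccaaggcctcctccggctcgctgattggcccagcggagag
Hspb1: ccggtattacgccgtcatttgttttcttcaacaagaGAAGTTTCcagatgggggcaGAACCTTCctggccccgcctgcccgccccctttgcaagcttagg
Hsph1: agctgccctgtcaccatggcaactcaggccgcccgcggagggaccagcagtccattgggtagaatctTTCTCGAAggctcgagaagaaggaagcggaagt
Hspa5: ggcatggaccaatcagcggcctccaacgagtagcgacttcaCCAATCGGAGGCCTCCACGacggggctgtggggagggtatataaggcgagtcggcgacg
Hsp90b1: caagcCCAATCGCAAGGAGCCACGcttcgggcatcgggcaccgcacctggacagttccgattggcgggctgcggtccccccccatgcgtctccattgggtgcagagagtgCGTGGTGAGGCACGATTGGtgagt

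The Hspa1a stretch lies at chr17:34972207-34972306 and the Hspa1b stretch at chr17:34959289-34959388, both on the minus strand. These 100 bases are the same in both genes, and the whole 300 bases differ at 4 positions, 3 of them before the start. Both genes carry a heat shock core from -104 to -97 relative to the start. The Hspb1 stretch, at chr5:135887766-135887865 on the plus strand, holds 2 cores, at -117 to -110 and at -97 to -90. The Hsph1 stretch, at chr5:149636337-149636436 on the minus strand, holds a core at -33 to -26. A further pair of overlapping cores lies after the Hsph1 start, from 37 to 49, and forms a run of 3 alternating units, which 0.603% of all promoters hold. The second Hsph1 promoter in the table overlaps the first and holds the same cores. The Hspa5 stretch lies at chr2:34771984-34772083 on the plus strand and has an ER stress element at -65 to -47. The Hsp90b1 stretch of 134 bases, at chr10:86705528-86705661 on the minus strand, has an element at -212 to -194 and another, in reverse orientation, at -107 to -89. No match lay in the windows of Dnajb1 and Dnajb9. A match describes letters only: binding by Hsf1 or any other factor was not measured.

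**Figure D1:**
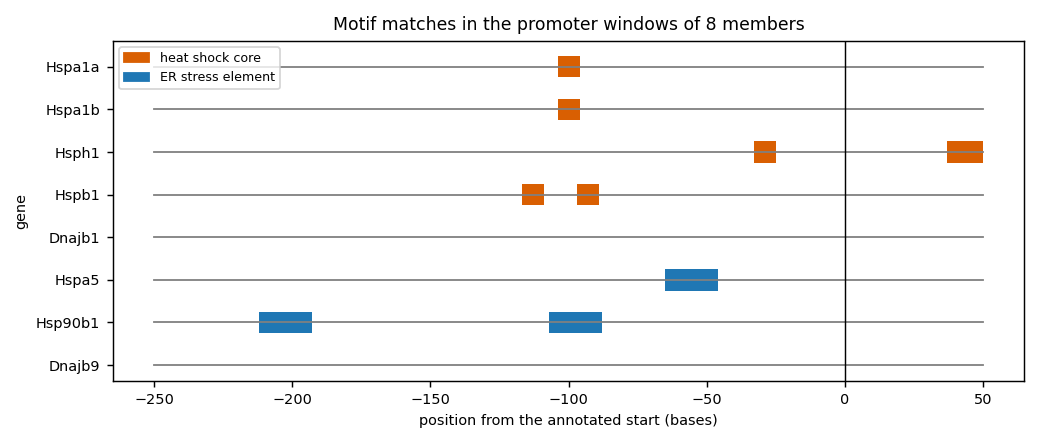
Positions of the motif matches in the 300-base promoter windows of 8 of the genes (first promoter of each), in bases from the annotated start. Orange bars are heat shock cores and blue bars ER stress elements. Cores were found in Hspa1a, Hspa1b, Hsph1 and Hspb1, and ER stress elements in Hspa5 and Hsp90b1.

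The values are deposited probe set intensities, used as log2 intensity. Array medians lay between 62.3 and 66.1 on the linear scale, and precision is limited by having 3 arrays in each group. Of the listed carcinoma markers, Krt8, Krt18, Krt19, Vim, Cdh2 and Epcam were above the intensity filter, while Krt7, Cdh1, Nkx2-1 and Sftpc were below it. Control replicate 1 stood apart. It had an array weight of 0.297, the lowest of the 12, and held the highest value of 7 of the 10 chaperones and the lowest of Dnajb9, where 16.1% of all tested genes had their highest and 15.8% their lowest value. The mean log2 intensity of 17 skeletal muscle genes was 9.46 in that array. It reached 10.1 in radiation replicate 3 and lay between 6.87 and 8.85 elsewhere. Several results that lean on control replicate 1 are therefore also given without it. In whole-tumor RNA, fewer cells of a type and less RNA per cell cannot be told apart.

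The antibody comparisons come first. Hspa1b was picked for its fall with 1D11, so all differences between 1D11 and 13C4 are given as a description, with no test. Both inducible Hsp70 genes were the lowest chaperones of the non-irradiated pair. In the 1D11 tumors, Hspa1b and Hspa1a lay at 0.452-fold and 0.443-fold of the control intensity, and the other cytosolic genes were lower by smaller amounts. Among the ER chaperones, Hsp90b1 differed as much as Hsp90aa1, and Hspa5 and Dnajb9 by less than 0.1. In the irradiated pair, Hspb1 and Hsph1 showed the largest differences, followed by Hspa1b and Hspa1a.

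Hspa1b read 11.32, 11.41 and 11.08 in the 3 control tumors and 9.995, 10.26 and 10.11 in the 3 tumors given 1D11. Every 1D11 tumor lay below every control tumor. The difference of means was -1.15 ± 0.21 (log2, SE of the limma fit, n = 3 per group), or 0.452-fold. After radiation, Hspa1b read 11.47, 10.66 and 10.62 with 13C4 and 10.78, 10.73 and 10.35 with 1D11. Here the groups overlapped, the difference was -0.29 ± 0.21, and the highest reading of all 12 tumors was that of radiation replicate 1. Without radiation replicate 1 the difference was -0.02. The Hspa1b levels thus ran, from high to low, control, radiation, 1D11_radiation and 1D11, with 1D11 clear of the other three. Control was also clear of 1D11_radiation, while radiation overlapped with both of these. Without control replicate 1 and radiation replicate 3, the arrays with the most muscle signal, the differences were -1.12 without radiation and -0.44 with it.

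Hspa1a read 8.52, 9.08 and 8.72 in control tumors and 7.36, 8.04 and 7.40 in 1D11 tumors, again without overlap. The difference was -1.18 ± 0.28, or 0.443-fold. In irradiated tumors it read 9.32, 8.34 and 8.42 with 13C4 and 8.82, 8.48 and 8.19 with 1D11. These groups overlapped, with a difference of -0.19 ± 0.28 that turned to 0.12 without radiation replicate 1. Hspa1a and Hspa1b moved together, at r = 0.91 over the 12 arrays and 0.86 after removal of group means. Their transcripts are near-identical, so a probe set of one may also read the other, and the pair is not independent evidence.

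Hspb1 varied most. It read 11.21, 8.96 and 8.89 in control tumors and 8.92, 9.38 and 9.29 in 1D11 tumors. One control tumor, replicate 1, was far above the rest, and the groups overlapped. The difference was -0.49 ± 0.50 with that tumor and 0.27 without it, so its direction in the non-irradiated pair rests on 1 array. In irradiated tumors Hspb1 read 9.07, 9.81 and 9.86 with 13C4 and 8.68, 8.81 and 8.21 with 1D11, with no overlap. That difference was -1.01 ± 0.50, or 0.496-fold. The skeletal muscle genes listed above read 8.16, 8.85 and 10.1 in the radiation tumors and 7.33, 8.64 and 6.87 in the 1D11_radiation tumors, replicates in the same order. Without radiation replicate 3, the array with the highest muscle level, the Hspb1 difference was -0.87.

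Hsph1 read 12.11, 11.14 and 11.21 in control tumors and 10.94, 11.52 and 11.13 in 1D11 tumors. The difference, -0.29 ± 0.25, became 0.02 without control replicate 1. In irradiated tumors it read 11.49, 11.50 and 11.77 with 13C4 and 11.25, 10.69 and 11.05 with 1D11. The irradiated groups did not overlap, and the difference was -0.59 ± 0.25. The second Hsph1 probe set gave -0.40 and -0.50 in the same comparisons. It read 11.40 in control replicate 1 and 10.34 and 10.37 in the other control tumors, against 9.95, 10.65 and 10.30 in 1D11 tumors. Its difference without radiation thus also leans on that array.

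Hsp90aa1 was the third cytosolic gene with separate groups in the non-irradiated pair. It read 14.08, 13.77 and 13.80 in control tumors and 13.67, 13.63 and 13.70 in 1D11 tumors, a difference of -0.22 ± 0.08 that shrank to -0.12 without control replicate 1. With radiation it read 13.92, 13.84 and 13.83 against 13.77, 13.66 and 13.73, a difference of -0.15 ± 0.08, again with no overlap. Of its 4 other probe sets, 1 with a mean level under the intensity filter separated the groups in the non-irradiated pair and none in the irradiated pair. The separation seen with the brightest probe set is therefore not shared by all probe sets of Hsp90aa1.

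Hspa8, the constitutive Hsp70, read 14.37, 14.18 and 14.21 in control tumors and 14.11, 14.23 and 14.15 in 1D11 tumors, with overlap and a difference of -0.09 ± 0.07. Without control replicate 1 that difference was -0.03. In irradiated tumors Hspa8 read 14.20, 14.22 and 14.22 with 13C4 and 14.12, 14.06 and 14.12 with 1D11. These were separate, at -0.11 ± 0.07. Its 3 other probe sets differed by -0.16, -0.44 and -0.58 in the non-irradiated pair, each with no overlap, so the brightest one gave the smallest difference. Dnajb1 read 11.21, 11.02 and 10.91 in control tumors against 10.80, 10.99 and 10.92 with 1D11. The difference was -0.15 ± 0.09, and -0.07 without control replicate 1. Dnajb1 read 11.02, 10.91 and 11.002 in radiation tumors against 10.86, 10.70 and 10.86 in 1D11_radiation tumors, separate groups at -0.17 ± 0.09. The second Dnajb1 probe set, at -0.35, separated the non-irradiated groups and not the irradiated ones.

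**Figure D2:**
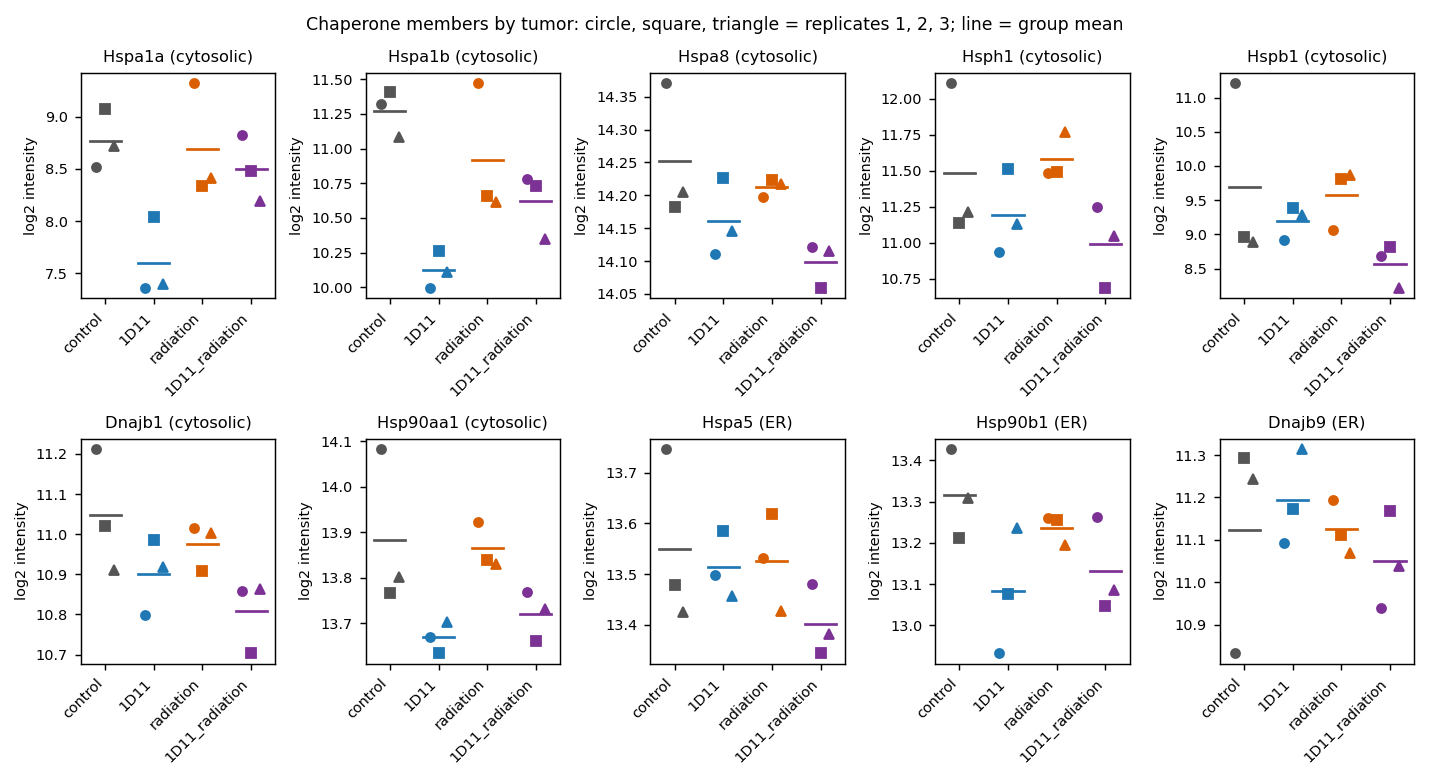
Log2 intensity of each chaperone in every tumor, 1 panel per gene with its own axis. Circles, squares and triangles are replicates 1, 2 and 3, and the line is the group mean. Hspa1a and Hspa1b are lowest in the 1D11 group, and control replicate 1 stands above the other tumors for Hsph1 and Hspb1.

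Of the ER chaperones, Hspa5 read 13.75, 13.48 and 13.43 in control tumors and 13.50, 13.59 and 13.46 in 1D11 tumors, a difference of -0.04 ± 0.09. Without control replicate 1 that difference was 0.06. In irradiated tumors Hspa5 read 13.53, 13.62 and 13.43 with 13C4 and 13.48, 13.34 and 13.38 with 1D11, a difference of -0.12 ± 0.09. Both pairs overlapped. Its 2 other probe sets differed by -0.22 and -0.25 without radiation and by -0.17 and -0.16 with it. One of them had separate groups in both pairs and the other in the irradiated pair.

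Hsp90b1 read 13.43, 13.21 and 13.31 in control tumors and 12.93, 13.08 and 13.24 in 1D11 tumors. The groups overlapped only through 1 tumor on each side, and the difference was -0.23 ± 0.09. With radiation it read 13.26, 13.26 and 13.20 against 13.26, 13.05 and 13.09, a difference of -0.11 ± 0.09. Its second probe set gave -0.07 and 0.04. Dnajb9 read 10.83, 11.29 and 11.24 in control tumors and 11.09, 11.17 and 11.32 in 1D11 tumors, a difference of 0.07 ± 0.12 that became -0.08 without control replicate 1. It read 11.19, 11.11 and 11.07 in radiation tumors and 10.94, 11.17 and 11.04 in 1D11_radiation tumors, a difference of -0.08 ± 0.12.

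Counted together, all 7 cytosolic genes were lower with 1D11 in the non-irradiated pair, with a median difference of -0.29 against 0.04 for all genes tested. Groups were separate for 3 of them (Hspa1a, Hspa1b and Hsp90aa1) and for none of the 3 ER genes. Over all genes tested, 6.95% had every 1D11 tumor below every control tumor. In limma, 2 genes were called between 1D11 and control at a Benjamini-Hochberg adjusted p under 0.05, which is 0.0157% of those tested. Without control replicate 1 the cytosolic median was -0.07, and Hspb1 (0.27) and Hsph1 (0.02) were higher with 1D11. With all arrays, the ER median was -0.04, with 2 of the 3 genes lower.

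In the irradiated pair, all 7 cytosolic genes were again lower with 1D11, with a median of -0.19 against 0.00 for all genes. Groups were separate for 5 of them (Hspa8, Hsph1, Hspb1, Dnajb1 and Hsp90aa1), where 6.12% of all genes had every 1D11_radiation tumor below every radiation tumor. All 3 ER genes were lower, with a median of -0.11, and none had separate groups. No gene was called by limma in that comparison (0%), where 688 had an unadjusted p under 0.05. The genes with separate groups in the 2 pairs were mostly not the same ones: of the 3 and the 5, Hsp90aa1 alone stood in both. Nothing is read from these counts, since Hspa1b was picked on the same difference.

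Averaged over both pairs (the 1D11 main effect, 6 tumors against 6), the largest differences were those of Hspb1 (-0.75 ± 0.36), Hspa1b (-0.72 ± 0.15), Hspa1a (-0.69 ± 0.20) and Hsph1 (-0.44 ± 0.17). Hsp90aa1, Hsp90b1, Dnajb1 and Hspa8 lay between -0.18 and -0.10, Hspa5 at -0.08 and Dnajb9 at 0.00. Without control replicate 1, Hspb1 was at -0.37 and Hsph1 at -0.29, behind Hspa1a (-0.75) and Hspa1b (-0.71). With the brightest probe sets, none of the 10 genes had all 6 tumors given 1D11 below all 6 given 13C4, a pattern found in 0.298% of all genes. One of the other Hspa8 probe sets had it. In limma, 1 gene, or 0.00785% of those tested, was called for this effect.

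**Figure D3:**
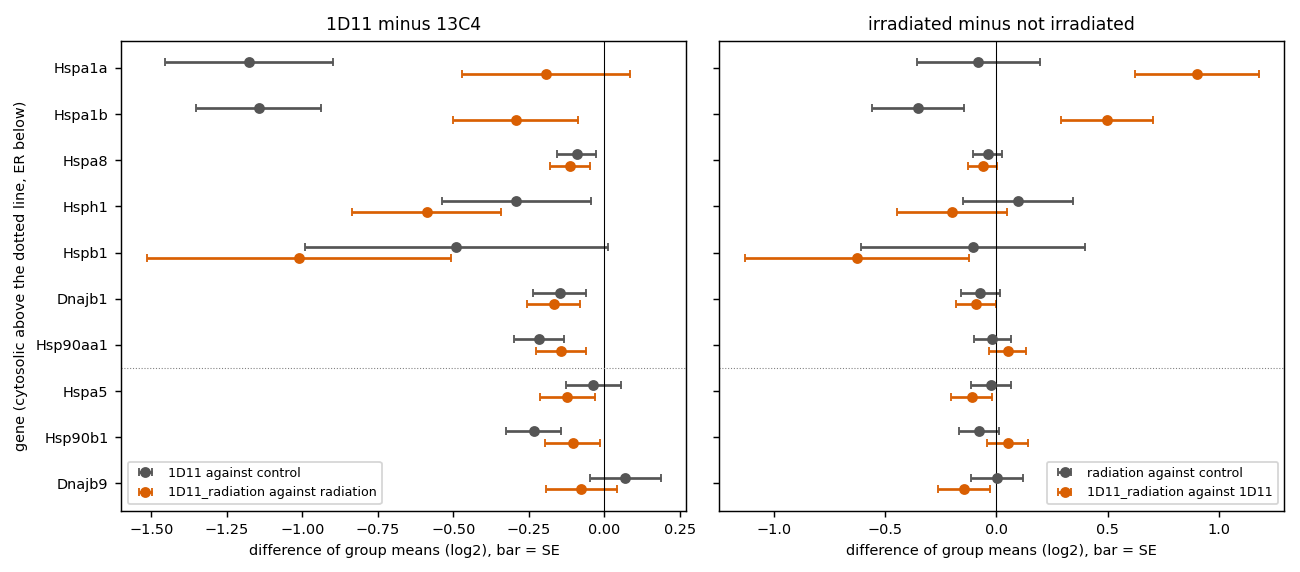
Difference of group means (log2) of each chaperone, with the SE of the limma fit and 3 tumors per group. The left panel gives 1D11 minus 13C4 without (grey) and with (orange) radiation, and the right panel irradiated minus non-irradiated tumors under 13C4 (grey) and under 1D11 (orange). Hspa1a and Hspa1b lie at -1.18 and -1.15 in the grey points on the left and at 0.90 and 0.50 in the orange points on the right.

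The mean deviation of the 7 cytosolic genes from their own 12-array means was 0.60, 0.14 and 0.03 in control tumors and 0.27, 0.10 and 0.16 in radiation tumors. It was -0.40, -0.08 and -0.27 in 1D11 tumors and -0.04, -0.21 and -0.30 in 1D11_radiation tumors. Every tumor given 1D11 thus lay below every tumor given 13C4, an order that the choice of Hspa1b helped to set. Without Hspa1a and Hspa1b the control tumors read 0.70, -0.08 and -0.09 and the 1D11 tumors -0.21, 0.05 and -0.06, which overlapped. The same 5 genes read 0.04, 0.16 and 0.24 in radiation tumors and -0.16, -0.31 and -0.30 in 1D11_radiation tumors, which did not.

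**Figure D4:**
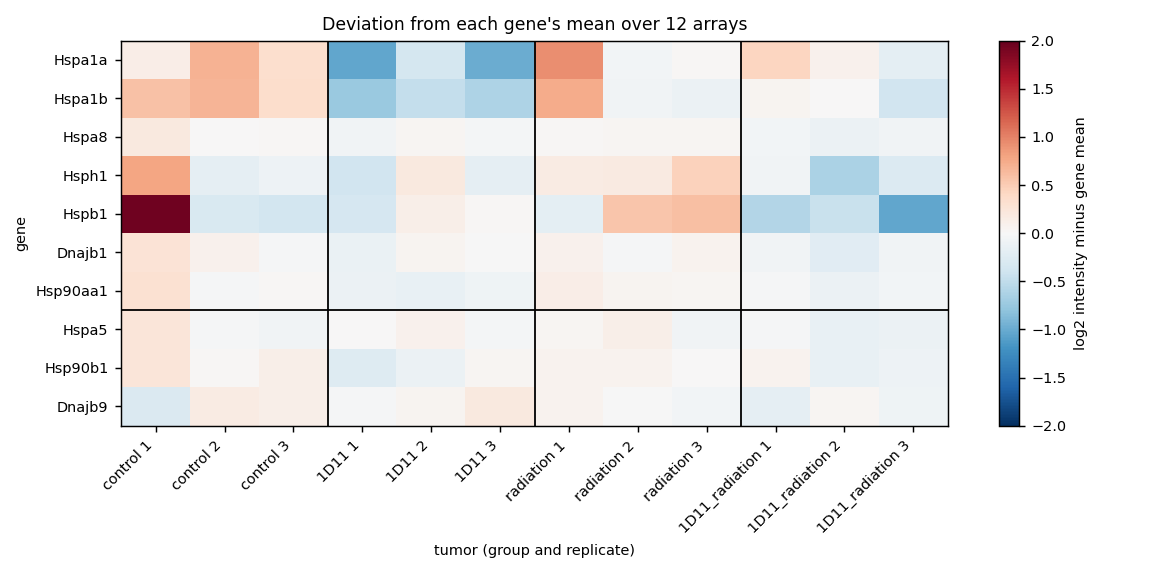
Deviation of each chaperone (rows) in each tumor (columns) from the mean of that gene over 12 arrays, in log2 intensity, red above and blue below. Hspb1 in control replicate 1 is the largest deviation, at 1.95. Hspa1a and Hspa1b are blue in all 3 tumors of the 1D11 group, while Hspb1 and Hsph1 are blue in all 3 of the 1D11_radiation group.

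Over the 25 probe sets, 24 were lower in 1D11 than in control tumors, the exception being the single probe set of Dnajb9, and 11 had separate groups. Of all 34945 probe sets with 1 symbol, 47.6% were lower and 8.77% were lower with separate groups. Without control replicate 1, the brightest probe sets of Hspb1 (0.27), Hsph1 (0.02) and Hspa5 (0.06) were higher with 1D11. That of Dnajb9 was lower (-0.075), and the other brightest ones stayed lower. The count of 24 thus rests in part on that array. In the irradiated pair 23 of 25 were lower and 10 had separate groups, against 50.1% and 5.73% of all. The exceptions there were 1 probe set each of Hsp90aa1 and Hsp90b1. The second probe sets of Hspb1 and of Hsph1 had the sign of the brighter one in both pairs, and the 3 of Hspa1b lay between -1.22 and -1.15 without radiation. The second Hspb1 probe set read 11.01 in control replicate 1 and 8.51 and 8.47 in the other control tumors. It read 8.61, 8.98 and 9.10 in 1D11 tumors, so its sign without radiation also rests on 1 array. Probe sets of a gene read the same RNA, so these counts are not replicates, and they rest on the difference that picked Hspa1b. Names ending in _x_at, among them the brightest one of Hspa8, mark probe sets whose probes can match other transcripts.

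**Figure D5:**
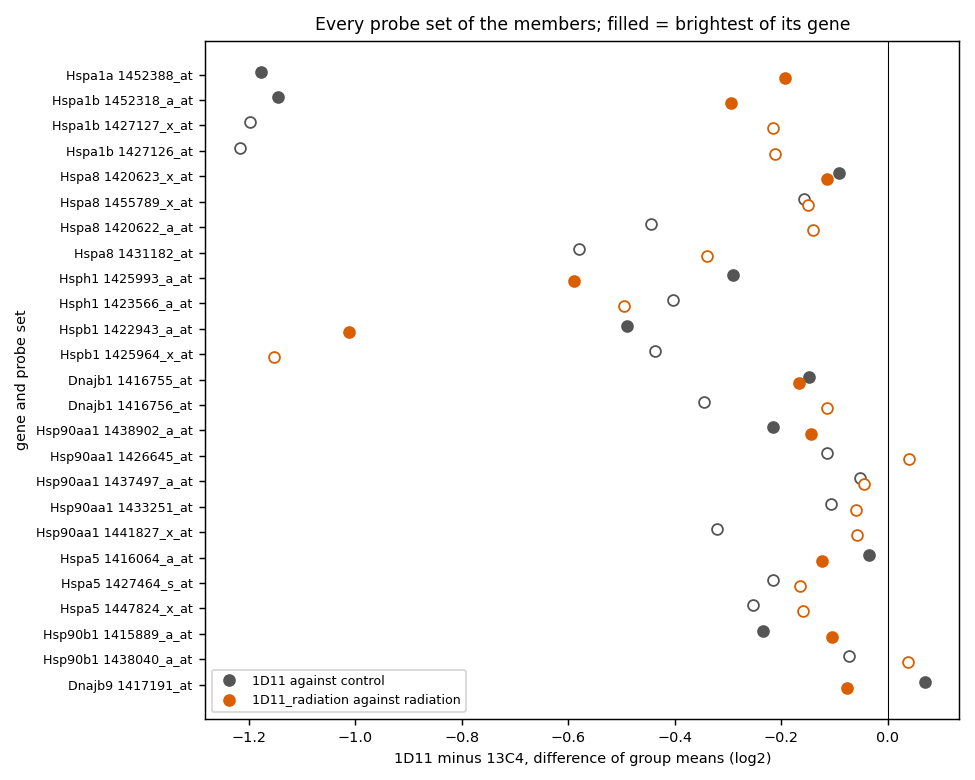
Difference of group means (log2), 1D11 minus 13C4, for each of the 25 probe sets, without radiation in grey and with radiation in orange. Filled points are the brightest probe set of a gene. The 3 Hspa1b probe sets lie together from -1.22 to -1.15 in grey, and the 2 Hspb1 probe sets lie at -1.01 and -1.15 in orange.

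The choice of the genes did not name a radiation difference. The control and 1D11 tumors by which Hspa1b was picked are, however, an arm of each simple radiation comparison, so Hspa1b and its near-identical partner Hspa1a are only described there, and the other 8 genes were tested. Under 13C4 (radiation against control), limma called none of the 8 after Benjamini-Hochberg adjustment, and none had an unadjusted p under 0.05. Of all genes tested, 2.39% were called and 18.7% had an unadjusted p under 0.05. Adjusted p ran from 0.690 for Hsp90b1 to 0.996 for Dnajb9. Hspa1b differed by -0.35 ± 0.21 and Hspa1a by -0.08 ± 0.28, both with overlap. The interval of Hspa5 ran from -0.23 to 0.18, and that of Hspb1, from -1.21 to 1.00 was the widest of the 8. With the brightest probe sets, no chaperone had separate groups, against 20.6% of all genes. Another probe set each of Hspa8 (-0.27) and Hspa5 (-0.20) did have separate groups, lower with radiation. Without control replicate 1, the Hspb1 difference moved from -0.11 to 0.66 and the Hsph1 difference from 0.10 to 0.41, with no call.

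Under 1D11 (1D11_radiation against 1D11), Hspa1a differed by 0.90 ± 0.28 (1.87-fold) and Hspa1b by 0.50 ± 0.21 (1.41-fold). Their low 1D11 values are part of the choice, so no test is given and nothing is read from this difference. Hspb1 lay lower, at -0.63 ± 0.50, with separate groups and a limma adjusted p of 0.606. That SE pools the spread of all 4 groups, the control tumors among them. The same difference had an SE of 0.22 (limma adjusted p 0.168) without control replicate 1. With only the groups compared the SE was 0.18 (limma adjusted p 0.128). With the brightest probe sets, Hspb1 was the one gene of the 8 with separate groups, against 26.1% of all genes. Another probe set each of Dnajb1 (0.32), Hspb1 (-0.71) and Hspa5 (-0.11) also had separate groups. In limma none of the 8 was called, where 0.0785% of all genes were. None of the 8 had an unadjusted p under 0.05, against 15.5% of all genes. The ER genes lay between -0.14 (Dnajb9) and 0.05 (Hsp90b1).

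Averaged over both antibodies (the radiation main effect), control and 1D11 tumors enter with equal weight, so a difference between them cancels and all 10 genes were tested. In this effect 7.26% of all genes were called by limma and none of the 10 chaperones. None of the 10 had an unadjusted p under 0.05, against 24.3% of all genes. The lowest adjusted p, 0.231, belonged to Hspa1a at 0.41 ± 0.20 (95% interval -0.02 to 0.84). Intervals of the ER genes were narrower. That of Hspa5 ran from -0.21 to 0.07, that of Hsp90b1 from -0.16 to 0.13, and that of Dnajb9 from -0.25 to 0.11.

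The interaction asks whether the radiation difference under 1D11 departs from that under 13C4. It was 0.98 ± 0.39 for Hspa1a and 0.85 ± 0.29 for Hspa1b, given with no test because the low 1D11 values picked the pair. The other 8 chaperones were tested with limma and none was called, nor had an unadjusted p under 0.05, with adjusted p from 0.880 to 0.985. No gene of the 12735 was called (0%), where 952 had an unadjusted p under 0.05. Among the 8, the largest estimates were those of Hspb1 (-0.52 ± 0.71) and Hsph1 (-0.30 ± 0.35), each smaller than its SE. Both lean on control replicate 1: without that array they were -1.28 and -0.61, still with no call. All these comparisons share groups: the control tumors enter 2 of the simple differences, and so do the tumors of each other group.

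Chaperone levels were also compared with each other across tumors. Over the 12 arrays, which include the group differences, Hspa8 followed Hsph1 (r = 0.93), Dnajb1 (0.92) and Hspb1 (0.87). These were 0.87, 0.85 and 0.68 without control replicate 1, and 0.96, 0.83 and 0.81 after removal of group means. Hspa1b followed these genes less closely, with r of 0.53 to Dnajb1, 0.45 to Hspa8, 0.36 to Hsph1 and 0.26 to Hspb1. Without control replicate 1 these were 0.41, 0.28, 0.17 and -0.06. After removal of group means they were 0.28, 0.03, 0.02 and -0.06. The 2 ER chaperones Hspa5 and Hsp90b1 correlated at 0.49, at 0.47 after removal of group means and at 0.17 without control replicate 1. Dnajb9 correlated below 0 with each of the 9 other genes, from -0.50 to -0.06, and from -0.13 to 0.31 without that array. After removal of group means its r ran from -0.80 (Hsph1) to 0.28 (Hspa1a). These values describe 12 arrays that share 4 groups and 1 normalization. The inducible pair took its highest values in radiation replicate 1, which also had the highest mean of 24 immediate early genes, 10.37. The lowest values of the pair lay in 1D11 replicate 1, which had the next highest immediate early mean, 10.21. In the other arrays that mean lay between 9.69 and 10.15. The part of these early-response transcripts in the Hsp70 values was not tested.

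Markers of other cell types also differed between these groups. The mean of 7 mast cell markers was 7.49 to 7.65 in the 1D11 tumors, where Hspa1a and Hspa1b were lowest, and 5.92 to 6.95 in the other 9. Of these markers, 6 of 6 tested were higher in 1D11 than in control tumors. The mean of 13 keratinocyte markers was 5.99 in 1D11 replicate 1 and 7.56 in 1D11 replicate 3, against 4.76 to 4.94 in the others. The mean of 12 macrophage markers was 11.02 to 11.32 in 1D11 tumors and 10.64 to 10.94 in control tumors. In the irradiated pair, where Hspb1 and Hsph1 were lower, several marker means had separate groups. The mean of 6 neutrophil markers was 8.15 to 8.37 with 1D11 and 7.47 to 8.07 with 13C4. That of 10 endothelial markers was 6.74 to 6.90 against 6.58 to 6.63. Lower with 1D11 were 8 plasma and B cell markers (6.94 to 6.96 against 7.03 to 7.09) and the keratinocyte markers (4.757 to 4.788 against 4.828 to 4.875). Only 4 of these 8, Xbp1 of the unfolded protein response among them, and 4 of the 13 keratinocyte markers passed the intensity filter. The keratinocyte means of the irradiated pair lay under its cut of 5.37. All 17 skeletal muscle genes were lower with 1D11, at a median of -1.49, though their means overlapped. The part of these markers in the chaperone differences was not tested.

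Beyond the 10 genes, the rest of the cytosolic heat shock system was read from a list of 54 other genes, of which 50 were tested. None was called by limma in the comparisons of 1D11 with 13C4, where 7 without and 1 with radiation had an unadjusted p under 0.05, against 14.1% and 5.4% of all genes. Of the 50, 26 were lower in 1D11 than in control tumors, with a median of -0.01 against 0.04 for all genes, and 34 were lower in 1D11_radiation than in radiation tumors, with a median of -0.04 against 0.00. Under radiation with 13C4, Cct7, a subunit of the cytosolic chaperonin, was called (0.28 ± 0.06, limma adjusted p 0.0495), 1 of 50 where 2.39% of all genes were. That call was lost on leaving out any 1 array other than control replicate 1, with adjusted p up to 0.199 in the alternatives.

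In the radiation main effect, limma called 3 of the 50, where 7.26% of all genes were called: 2 rose and 1 fell. Cct7 rose by 0.22 ± 0.05 (limma adjusted p 0.0161) and was called in each alternative run. Hspa12b, a distant Hsp70 relative expressed in endothelium, fell by 0.29 on the log2 scale (SE 0.07, limma adjusted p 0.0247). This call was lost without 1D11 replicate 2, radiation replicate 1, or 1D11_radiation replicate 2 or 3, with adjusted p up to 0.0651. Of 9 tested endothelial markers, all 9 were lower in this effect and 4 were called. Their part in the Hspa12b value was not tested. Bag5, a co-chaperone that binds Hsp70, rose by 0.22 ± 0.06 (limma adjusted p 0.0376), and this was lost without any 1 array except control replicate 2, 1D11 replicate 1 and 1D11_radiation replicate 1. Limma called none of the list in 1D11_radiation against 1D11, where 6 had an unadjusted p under 0.05, against 15.5% of all genes.

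The list of other ER chaperones and unfolded protein response genes held 48, of which 44 were tested. None was called by limma in either comparison of 1D11 with 13C4, nor in either single radiation comparison. At an unadjusted p under 0.05 there were 4 in 1D11 against control, 3 in 1D11_radiation against radiation, 6 in radiation against control and 9 in 1D11_radiation against 1D11. Over all genes these shares were 14.1%, 5.4%, 18.7% and 15.5%. Between 1D11_radiation and 1D11 tumors, 37 of 44 were lower, with a median of -0.09 against -0.03 for all genes. In the radiation main effect 5 of 44 were called, 2 higher and 3 lower, where 7.26% of all genes were called. Ddit3 (Chop), a transcription factor of ER stress, rose by 0.34 ± 0.07 (limma adjusted p 0.0221), a call lost without 1D11 replicate 3 or radiation replicate 1. Edem3, which acts in ER-associated degradation, fell by 0.26 on the log2 scale (SE 0.06, limma adjusted p 0.0193), and was lost without radiation replicate 1 or 1D11_radiation replicate 3. Erp29, an ER luminal folding factor, fell by 0.31 on the log2 scale (SE 0.07, limma adjusted p 0.0195), and was lost without 1D11 replicate 2, radiation replicate 1 or 1D11_radiation replicate 3. Eif2ak3 (Perk), a sensor of ER stress, fell by 0.19 on the log2 scale (SE 0.05, limma adjusted p 0.0347). It kept its call only without control replicate 1 or 3, or radiation replicate 2 or 3. Ero1a, an oxidase of the ER lumen, rose by 0.62 ± 0.16 (limma adjusted p 0.0383), named after its value was seen. It kept its call only without any 1 control tumor or radiation replicate 3, and its change was 0.45 without control replicate 1. With the mean of all probe sets of a gene, Edem3 and Eif2ak3 were not called.

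Of 13 mitochondrial chaperones and proteases, 12 were tested and limma called none in any comparison. None had an unadjusted p under 0.05 in any of them, where 5.4% to 24.3% of all genes did. Among 23 tested immediate early genes, limma called 2 in radiation against control, where 2.39% of all genes were called: Fosl1 (0.63 ± 0.12, adjusted p 0.0238) and Nr4a1 (0.61 ± 0.13, adjusted p 0.0327). The Fosl1 call was lost without control replicate 2, radiation replicate 1 or radiation replicate 2. The Nr4a1 call was kept only without control replicate 1, any 1D11 tumor or 1D11_radiation replicate 2. In the radiation main effect 3 rose, Fosl1, Myc and Nr4a1, and Klf2 fell, against 7.26% of all genes called. The calls of Fosl1 and Myc stood in every alternative run. Nr4a1 kept its call only without control replicate 1, 1D11 replicate 1 or radiation replicate 2, and Klf2 only without control replicate 1, radiation replicate 3 or 1D11_radiation replicate 2. Limma called none of the 23 in 1D11 against control or 1D11_radiation against radiation, where 3 and 0 had an unadjusted p under 0.05. Over all genes these shares were 14.1% and 5.4%.

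Among the 12725 tested genes outside the 10, the pattern most like Hspa1b over the 12 arrays was that of Nckap5los (r = 0.93, and 0.75 after removal of group means). Trpc7 (0.86), 5730416F02Rik (0.83), Ecel1 (0.82), Fam216b (0.81) and Slc17a9 (0.81) came next. After removal of group means these were, in the same order, 0.52, 0.51, 0.32, 0.73 and 0.625. Nckap5los, 5730416F02Rik and Fam216b had mean log2 intensities of 5.67, 5.54 and 5.51, close to the filter at 5.37. The differences of the 6 genes between 1D11 and control, from -0.43 to -0.30, were smaller than that of Hspa1b. The most opposite were Mmut (-0.91), Kif3b (-0.91) and Ppil4 (-0.89). For Hspa5, the most like were Vdac3 (0.97), Lrp11 (0.93), Eed (0.93), Csrp3 (0.92), Lrwd1 (0.91) and Gatb (0.91). The most opposite were Hdgfl3 (-0.89), Rcor3 (-0.89) and 2410006H16Rik (-0.89). No gene stood in both lists.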

How the data were processed

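Per the labels' protocols, biotin-labelled cRNA from total RNA of 12 tumors was hybridised to Affymetrix arrays, 1 array per tumor. The deposited values are intensity per probe set on a linear scale; which background correction and normalization made them is not given in the sources used here. Their log2 was taken as it stood. Of 45101 probe sets, 64 control sets were left out, 34945 had 1 gene symbol in the probe table, 932 several and 9160 none. Genes in the lowest 30 percent of mean log2 intensity (under 5.37) were not tested, which left 12735.

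Groups were fitted in R 4.3.3 with limma 3.58.1: 1 mean per group over all arrays, eBayes, two-sided, Benjamini-Hochberg over all genes tested, called at an adjusted p under 0.05 (8 residual and 3.11 prior degrees of freedom). Intervals are 95% from that fit. The procedure was tested on simulated data. The members, gene lists and motifs were chosen with earlier results of these data known. All members are named, with up to 4 called genes per list and comparison, and the 6 most and 3 least correlated genes for Hspa1b and Hspa5; Ero1a was added after its value was seen, to complete a count. Hspa1a and Hspa1b were fitted in the simple radiation comparisons too, but no test of them is given there. Same-numbered replicates were not treated as pairs: 3 of 18 such pairs of arrays had deviations correlated over 0.1. Alternatives were the mean of probe sets, no filter, quantile normalization, array weights, a replicate block, only the groups compared, each array left out, and both muscle-rich arrays left out. The last was listed with earlier results known.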

Additional observations from a re-analysis of the deposited data

How the results depend on the processing

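None of the chaperones tested in a radiation comparison or in the interaction was called under any alternative run. Counts over all genes moved most. For radiation against control, 304 genes were called. The count was 193 when probe sets of a gene were averaged, 890 with array weights, 569 without control replicate 1 and radiation replicate 3, and 6 with only the groups compared. It ran from 20 (without radiation replicate 2) to 435 on leaving out 1 array. For 1D11_radiation against 1D11 (10 called) the same settings gave 35, 1491, 419 and 115, the replicate block gave 1, and leaving out 1 array gave 1 to 226, the highest without control replicate 1. For the radiation main effect (925) they gave 2176 with array weights and 1408 without both arrays, and 407 to 1155 on leaving out 1. For 1D11 against control (2) the count was 0 with the mean of probe sets, quantile normalization, the replicate block or only the groups compared, 4 with no filter, 13 with array weights, 58 without both arrays and 0 to 21 without 1. For 1D11_radiation against radiation (0) it was 6 with weights, 1 without both arrays and 0 to 1 without 1. For the 1D11 main effect (1) it was 0 with the mean of probe sets or the replicate block, 2 with quantile normalization or without both arrays, 3 with weights and 0 to 3 without 1. For the interaction (0) it was 122 with weights, 20 without both arrays and 0 to 21 without 1. The replicate block ended no call of a chaperone, since none was made. Its replicate numbers did not mark pairs (r from -0.31 to 0.27).

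The cytosolic median of 1D11 against control was -0.069 with array weights and -0.066 without both arrays, and ran from -0.466 to -0.066 without 1 array. The ER median was -0.154 with the mean of probe sets and ran from -0.098 to -0.007. In the irradiated pair the cytosolic median ran from -0.371 to -0.121 and the ER median from -0.162 to -0.082. Of the list genes named, averaging probe sets ended the calls of Bag5, Edem3 and Eif2ak3 and that of Fosl1 against control. Without the filter, the calls of Bag5, Eif2ak3, Nr4a1 (main effect) and Cct7 (against control) were lost. The replicate block ended those of Bag5, Klf2, Ero1a and Cct7 (against control). With only the groups compared, all 3 named calls in radiation against control (Cct7, Fosl1 and Nr4a1) were lost. Leaving out both muscle-rich arrays ended 4 named calls, and quantile normalization 1. The causes of these shifts were not tested. Hspa1b stayed between -1.24 and -1.08 in 1D11 against control on leaving out any 1 array.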
